A study of Mus musculus with 8 samples.

Results

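The genes of oligodendrocytes and of central myelin were examined in inner ear RNA from mouse pups on postnatal day 14. They were the 9 genes Mog, Mobp, Opalin, Ermn, Hapln2, Aspa, Gpr37, Olig1 and Olig2, chosen by symbol, of 47517 symbols in each deposited table. The mutant group held 4 samples of mice heterozygous for a frameshift that alters TRα1, the α1 form of the thyroid hormone receptor, encoded by Thra. The wild-type group held 4 samples of littermates. No treatment was given, and total RNA was sequenced. The series title speaks of the cochlea, and the sample labels of the inner ear. The labels do not state the strain, the sequence change, or whether a sample was 1 ear, 1 animal or a pool, so p-values rest on differences among samples that may be technical in origin. Sample titles carry 1 number for replicates 1 and 4 and 2 numbers for replicates 2 and 3, alike in both genotypes, with no stated meaning. Replicates are numbered in accession order.

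Oligodendrocytes wrap axons of the brain and spinal cord in myelin, whereas Schwann cells do so in peripheral nerves. The eighth cranial nerve has both kinds, since its stretch next to the brainstem is myelinated by oligodendrocytes and its peripheral stretch, with the ganglia, by Schwann cells. In rodents thyroid hormone promotes the timely change of oligodendrocyte precursors into myelinating cells, and precursors carry TRα1.

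Libraries held between 18930841 and 23064578 counts, so that 3 counts corresponded to between 0.132 and 0.159 CPM (counts per 1000000 of the normalized library size). All 9 genes passed the expression filter, with between 22 counts (Opalin in wild-type replicate 4) and 11766 counts (Mobp in wild-type replicate 2). Together they took between 0.0274% and 0.0813% of a library's counts. Of the 12 defining markers of the inner ear all were detected and 0 were called by genotype in edgeR (3 positive, 9 negative, median log2 fold change -0.084, or -0.20 without mutant replicate 2 to -0.0097 without wild-type replicate 3), with a summed level of 2221 to 4138 CPM in mutant and 2985 to 3944 CPM in wild-type libraries. Coch alone made up most of this sum, at 2395 ± 914 CPM in mutant and 2542 ± 338 CPM in wild-type libraries (SD, n = 4 each). The labelled tissue was thus present in each library by these markers. Thra itself had a log2 fold change of 0.24 (SE 0.089, edgeR adjusted p = 0.924), and gene-level counts do not show the frameshift. In bulk RNA, fewer cells of a type and less RNA per cell cannot be told apart.

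The promoters of 2 members are shown because they hold the most matches, in these 9 genes, to motifs tied to the glial transcription factors of this lineage. Promoter windows of 300 bases, 250 before the start site and 50 from it, were taken from RefSeq on GRCm38.p6 for 8 of the 9 genes, all but Olig1. Capitals mark matches on either strand to ACAAAG (a core that SOX proteins bind), the E-boxes CAGCTG and CAGATG (letters of a kind that OLIG proteins bind) or CTGGCAC (a core bound by MYRF). No 2 of these motifs overlapped in the windows shown. The window of Mobp lies at chr9:120149492-120149791 on the plus strand and that of Opalin at chr19:41077064-41077363 on the minus strand, each printed along its gene.
Mobp: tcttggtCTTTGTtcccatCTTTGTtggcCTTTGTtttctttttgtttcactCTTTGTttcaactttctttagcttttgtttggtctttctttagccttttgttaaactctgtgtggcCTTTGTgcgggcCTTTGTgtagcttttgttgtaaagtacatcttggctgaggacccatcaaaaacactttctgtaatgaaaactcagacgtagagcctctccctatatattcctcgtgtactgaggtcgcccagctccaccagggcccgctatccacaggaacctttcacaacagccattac
Opalin: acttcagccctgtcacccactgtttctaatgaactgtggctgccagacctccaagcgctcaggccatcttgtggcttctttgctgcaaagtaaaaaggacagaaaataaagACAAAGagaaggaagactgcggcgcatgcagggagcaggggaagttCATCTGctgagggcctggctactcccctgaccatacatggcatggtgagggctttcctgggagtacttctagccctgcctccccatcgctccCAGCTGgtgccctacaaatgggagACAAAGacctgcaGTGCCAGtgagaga

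The Mobp window held 6 copies of ACAAAG, all on the strand opposite to the gene (CTTTGT as printed), the outermost beginning 243 and 120 bases before the start site. Of 32851 mouse promoter windows of this length, 18.7% held at least 1 copy and 1 window, that of Mobp, held 6 or more. The cutoff of 6 was taken from the Mobp window itself, so this is a description only. The Opalin window held 2 copies of ACAAAG, 1 copy of each E-box and 1 of CTGGCAC. Over the 8 windows, ACAAAG was found in 2, against the 18.7% of all windows, CAGCTG was found in 3, against 16.3% of all windows, CAGATG in 3 (17.2% of all) and CTGGCAC in 2 (5.01% of all). The hexamer AGGTCA, which nuclear receptors for thyroid hormone bind, was found in 0 of the 8 and in 16.3% of all windows. A match is a description of the letters and does not show binding.

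Levels of different genes were compared per kilobase of merged exons (GENCODE M21). Mobp encodes a small basic protein packed between the cytoplasmic faces of central myelin. It stood highest of the 9, at 60.6 ± 14.7 CPM per kilobase in mutant and 46.9 ± 29.7 in wild-type libraries (SD, n = 4 each). Mog, an immunoglobulin-domain protein on the outer face of the central myelin sheath, followed at 30.5 ± 6.07 and 24.99 ± 8.52 CPM per kilobase in mutant and wild-type libraries (SD, n = 4 each). Both were far below Mbp, a gene that Schwann cells also use. Mbp, which compacts myelin in both kinds of glia, stood at 396 ± 51.8 CPM per kilobase in mutant and 296 ± 91.5 in wild-type libraries (SD, n = 4 each). Opalin, a sialylated membrane protein of oligodendrocytes, was the lowest at 0.668 ± 0.235 and 0.587 ± 0.187 CPM per kilobase in mutant and wild-type libraries (SD, n = 4 each).

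The order of levels per kilobase over the mean of the 8 libraries was Mobp, Mog, Ermn, Olig1, Gpr37, Hapln2, Aspa, Olig2 and Opalin. Mobp exceeded Mog, Mog exceeded Ermn, Ermn exceeded Olig1, Aspa exceeded Olig2 and Olig2 exceeded Opalin in 8 of 8 libraries. Olig1 exceeded Gpr37 in only 4 libraries, and Gpr37 exceeded Hapln2, and Hapln2 exceeded Aspa, in 6 each. The 4 genes from Olig1 to Aspa thus did not keep 1 order across libraries.

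**Figure D1:**
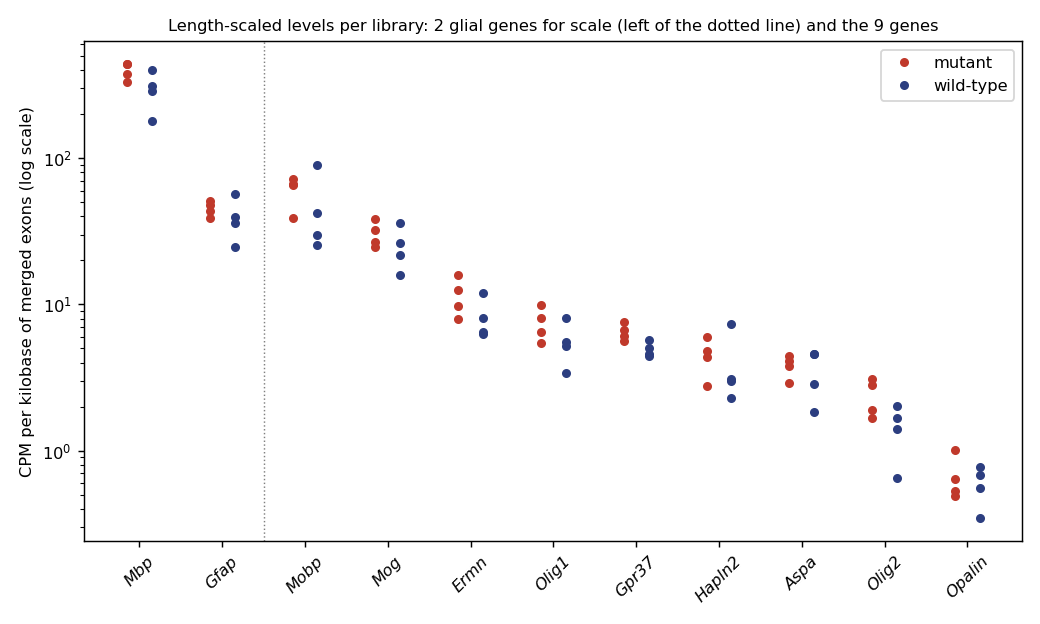
Levels per library in CPM per kilobase of merged exons on a log axis, mutant left of wild-type, for 2 glial genes for scale (Mbp and the astrocyte gene Gfap) and the 9 genes. Mobp reaches the level of Gfap, and Opalin lies lowest in both genotypes.

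No member passed the test of mutant against wild-type libraries, although all 9 had a positive difference. At an adjusted p under 0.05 over all genes, edgeR's quasi-likelihood test called 0 of the 9, where 0.0421% of 21392 genes tested were called in either direction. DESeq2 and limma-voom also called 0 of the 9, against 0.423% and 0.0748% of all genes they tested. All 9 log2 fold changes (mutant over wild-type) were positive, between 0.14 and 0.72, with a median of 0.37. Over all genes tested 48.3% were positive and the median was -0.0061. At an unadjusted p under 0.05, 1 of the 9 (Gpr37) was higher, against 2.21% of all genes. The genotypes overlapped in all 9 members, whereas 2.69% of all genes showed no overlap. Counts of members are descriptions, since the members vary together over the same libraries.

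Gene positions are those of GENCODE M21 on GRCm38, with Mobp, Olig1 and Olig2 on the plus strand and the other 6 genes on the minus strand. Mobp overlaps Gm38642, a processed transcript on the same strand, so strand could not separate reads in that overlap. Mog overlaps Gm22388, annotated as a miscellaneous RNA, on the opposite strand. Of the structural proteins of the sheath, Mog (chr17:37010743-37023398) stood at 42.1, 45.8, 54.9 and 65.2 CPM in mutant replicates 1 to 4 and 37.0, 61.4, 44.8 and 27.0 CPM in wild-type replicates 1 to 4. Its mutant libraries lay inside the wild-type range, apart from replicate 4, which exceeded every wild-type library. The log2 fold change was 0.29 (SE 0.25, 95% interval -0.27 to 0.85, edgeR adjusted p = 1.0). Mobp (chr9:120149707-120181484) stood at 267, 490.4, 446 and 456 CPM in mutant replicates 1 to 4 and 203, 618, 289.6 and 175 CPM in wild-type replicates 1 to 4. The highest library of all was a wild-type one, replicate 2, and the other 3 wild-type libraries were at or below 289.6 CPM. The log2 fold change of Mobp was 0.37 (SE 0.40, interval -0.56 to 1.30, edgeR adjusted p = 1.0), so the interval ran from 0.679-fold to 2.46-fold.

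Opalin (chr19:41061710-41077113) had only 33 to 56 counts in mutant and 22 to 44 in wild-type libraries. Its levels were 1.45, 1.56, 1.89 and 2.96 CPM in mutant replicates 1 to 4 and 1.63, 1.995, 2.29 and 1.01 CPM in wild-type replicates 1 to 4. Apart from the highest library, mutant replicate 4, and the lowest, wild-type replicate 4, the genotypes were mixed, and the log2 fold change was 0.18 (SE 0.32, interval -0.55 to 0.92, edgeR adjusted p = 1.0). Ermn (chr2:58045113-58052864), ermin, binds actin in the processes of myelinating oligodendrocytes. It overlaps Galnt5, a protein-coding gene on the opposite strand. Reads in that overlap cannot be told apart unless strand was used in counting, which is not stated. Ermn stood at 28.8, 45.4, 35.6 and 58.1 CPM in mutant replicates 1 to 4 and 23.5, 43.8, 29.5 and 23.0 CPM in wild-type replicates 1 to 4. Wild-type replicate 2 lay above 2 of the mutant libraries, and the others of its genotype lay at the low end (log2 fold change 0.49, SE 0.27, interval -0.13 to 1.10, edgeR adjusted p = 0.939).

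Hapln2 (chr3:88021750-88027583) encodes a link protein that ties hyaluronan to proteoglycans at the nodes of Ranvier in the central nervous system. It stood at 6.58, 14.2, 10.4 and 11.4 CPM in mutant replicates 1 to 4 and 7.06, 17.4, 7.28 and 5.43 CPM in wild-type replicates 1 to 4. Wild-type replicate 2 was the highest library and stood apart from the other 3 of its genotype, and the log2 fold change was 0.20 (SE 0.38, interval -0.68 to 1.07, edgeR adjusted p = 1.0). Aspa (chr11:73304992-73329596), aspartoacylase, splits N-acetylaspartate into aspartate and acetate. Its levels were 17.3, 26.5, 24.4 and 22.5 CPM in mutant replicates 1 to 4 and 17.0, 27.2, 27.1 and 10.9 CPM in wild-type replicates 1 to 4. Replicates 2 and 3 were the highest 2 libraries in each genotype, and the log2 fold change was 0.14 (SE 0.29, interval -0.51 to 0.79, edgeR adjusted p = 1.0).

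Gpr37 (chr6:25665878-25690729), an orphan G protein-coupled receptor that restrains late oligodendrocyte differentiation in mice, had the narrowest spread. It stood at 40.4, 34.3, 36.7 and 45.9 CPM in mutant replicates 1 to 4 and 30.5, 27.8, 34.5 and 26.9 CPM in wild-type replicates 1 to 4. Only mutant replicate 2 lay below a wild-type library (replicate 3). The means were 39.3 ± 5.04 CPM in mutant and 29.9 ± 3.45 CPM in wild-type libraries (SD, n = 4 each). Its log2 fold change of 0.39 (SE 0.12, interval 0.13 to 0.66) had the smallest p of the 9 (edgeR unadjusted p = 0.00839) but did not pass the adjustment over all genes (adjusted p = 0.907).

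Olig1 (chr16:91269772-91271933) and Olig2 (chr16:91225457-91228677) are neighbouring genes for basic helix-loop-helix transcription factors that specify the lineage and drive its maturation. Olig1 overlaps Gm15966, an antisense non-coding gene. Reads in that overlap cannot be told apart unless strand was used in counting, which the sources used here do not state. Olig1 stood at 13.9, 11.7, 17.5 and 21.5 CPM in mutant replicates 1 to 4 and 11.2, 17.3, 11.96 and 7.31 CPM in wild-type replicates 1 to 4. The genotypes overlapped through wild-type replicates 2 and 3, and the log2 fold change was 0.43 (SE 0.27, interval -0.19 to 1.06, edgeR adjusted p = 0.966). Olig2 stood at 4.78, 4.23, 7.07 and 7.78 CPM in mutant replicates 1 to 4 and 3.53, 5.09, 4.21 and 1.66 CPM in wild-type replicates 1 to 4. It had the largest log2 fold change of the 9, 0.72 (SE 0.34, interval -0.055 to 1.495, edgeR adjusted p = 0.924), and the widest span, 4.70-fold from the lowest to the highest library. That span rested on wild-type replicate 4, with 36 counts against at least 76 in each other library.

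**Figure D2:**
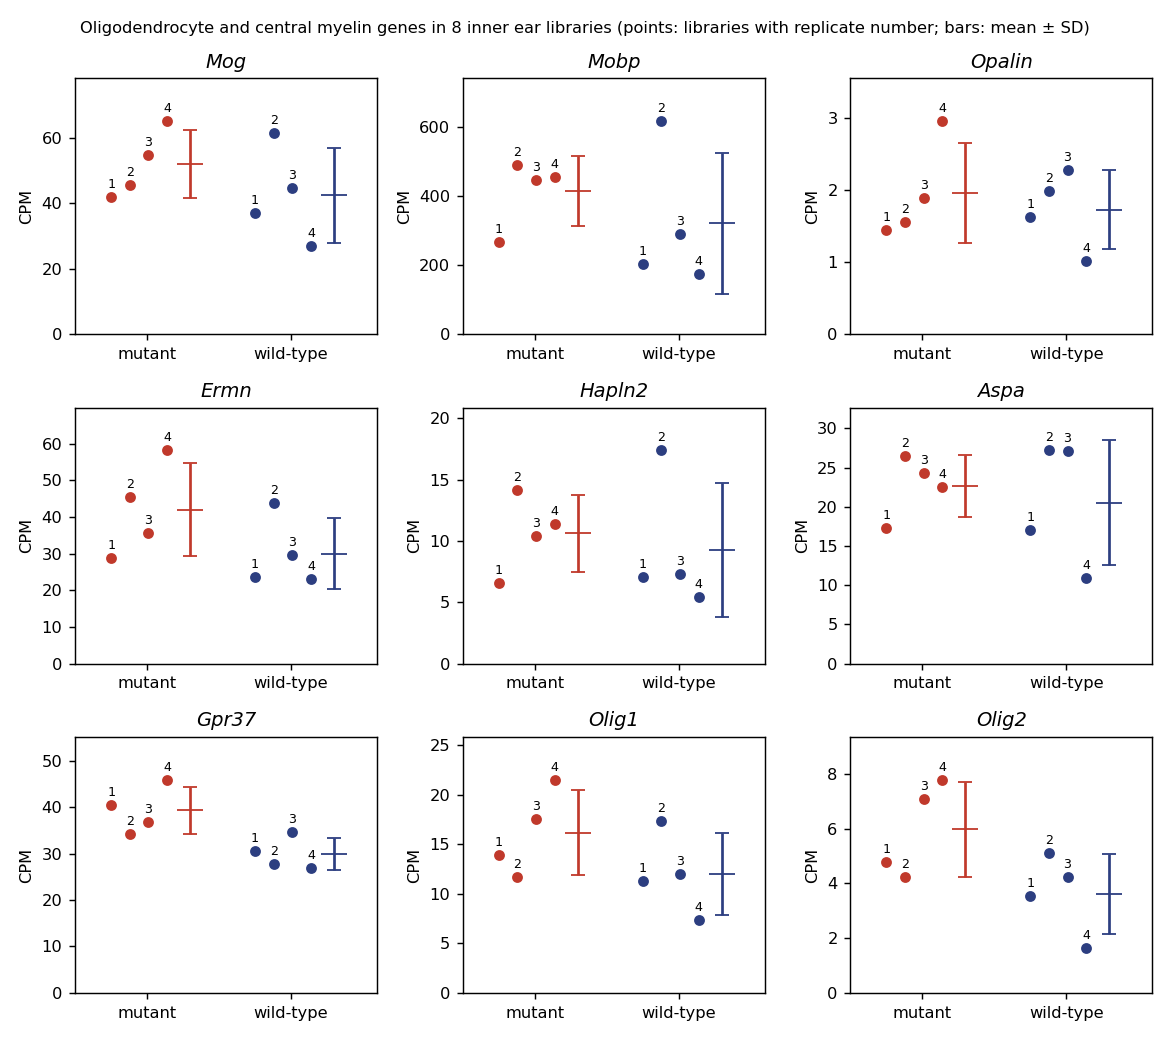
CPM of each gene in each library, numbered by replicate, with the mean and SD beside the points, mutant left of wild-type. Wild-type replicate 4 is the lowest library in all 9 panels, and the genotypes overlap in each.

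**Figure D3:**
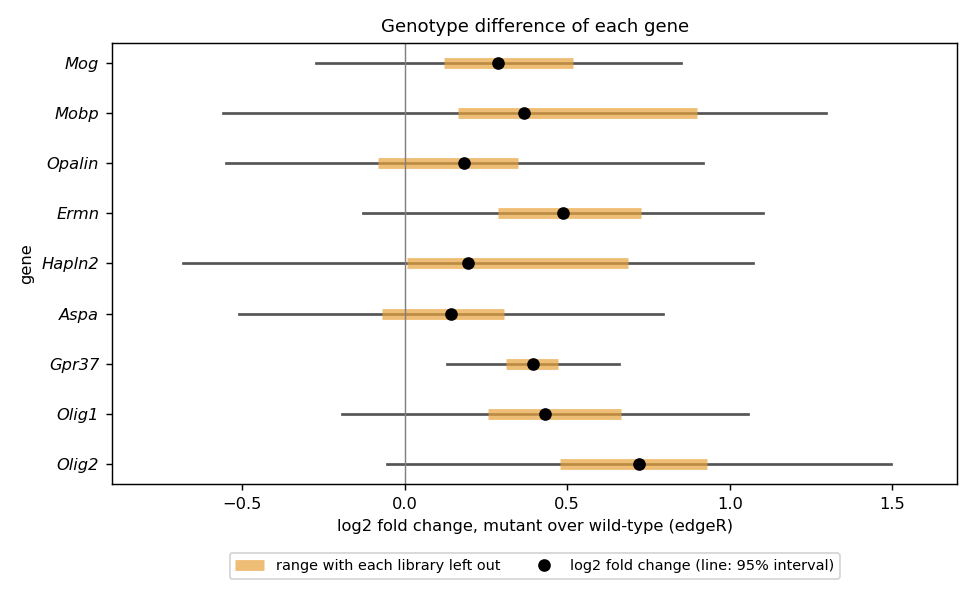
Log2 fold change of each gene (mutant over wild-type, edgeR; point) with its 95% interval (thin line) and the range with each of the 8 libraries left out (thick bar). The interval excludes 0 for Gpr37 alone, before adjustment over all genes.

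The size of these differences depended on a few libraries. Wild-type replicate 4 was the lowest library for 9 of 9 members, a place it held for 12.9% of all genes tested. Mutant replicate 4 was the highest for 6 members and wild-type replicate 2 for the other 3 (Mobp, Hapln2 and Aspa). Without wild-type replicate 4, 7 of 9 members were positive and the median log2 fold change was 0.16. Without wild-type replicate 1 the median was 0.23. Without wild-type replicate 2 it was 0.67, and 7 of the 9 were higher at an unadjusted p under 0.05, against 1.54% of all genes in that fit. In that fit Mobp had a log2 fold change of 0.90 and Olig2 of 0.93, each with an edgeR adjusted p of 1.0. With any other single library left out, only 1 or 2 of the 9 had an unadjusted p under 0.05 (edgeR). Within the libraries whose titles hold 1 number, all 9 members were positive with a median difference of 0.73 in log2 CPM. Within those whose titles hold 2 numbers, 5 were positive and 4 negative with a median of 0.11 (2 mutant and 2 wild-type libraries each, with no test). Positive values in all 9 members were thus not found within libraries with 2 numbers in the title, and whether the difference varied with the form of the title was not tested.

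Members varied together over the 8 libraries, though not as 1 block. All 36 pairs of members had a positive Pearson r of log2 CPM, from 0.074 to 0.96 with a median of 0.74, as a description of 8 libraries whose genes share depth and the mix of tissue. Olig1 and Olig2 were the closest pair (r = 0.96), followed by Mog with Olig1 (0.96) and Mobp with Hapln2 (0.96). Gpr37 stood most apart, with r = 0.074 to Hapln2, 0.28 to Mobp and 0.32 to Aspa.

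Ratios within a library show where members parted. That of Mobp to Mog in CPM, both genes of the sheath, was 6.35, 10.7, 8.11 and 6.998 in mutant replicates 1 to 4 and 5.50, 10.1, 6.46 and 6.46 in wild-type replicates 1 to 4. Replicate 2 was the highest in both genotypes, and the genotypes overlapped. The ratio of Mog to Olig2 was 8.79, 10.8, 7.77 and 8.38 in mutant replicates 1 to 4 and 10.5, 12.1, 10.6 and 16.3 in wild-type replicates 1 to 4. Only mutant replicate 2 reached the wild-type range for this ratio. The ratio of Mobp to Olig2 overlapped more, at 55.8, 115.9, 63.0 and 58.6 in mutant replicates 1 to 4. In wild-type replicates 1 to 4 it was 57.6, 121.3, 68.7 and 105.5. That of Olig1 to Olig2, both transcription factor genes, was 2.91, 2.76, 2.47 and 2.76 in mutant replicates 1 to 4. In wild-type replicates 1 to 4 it was 3.18, 3.40, 2.84 and 4.42.

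**Figure D4:**
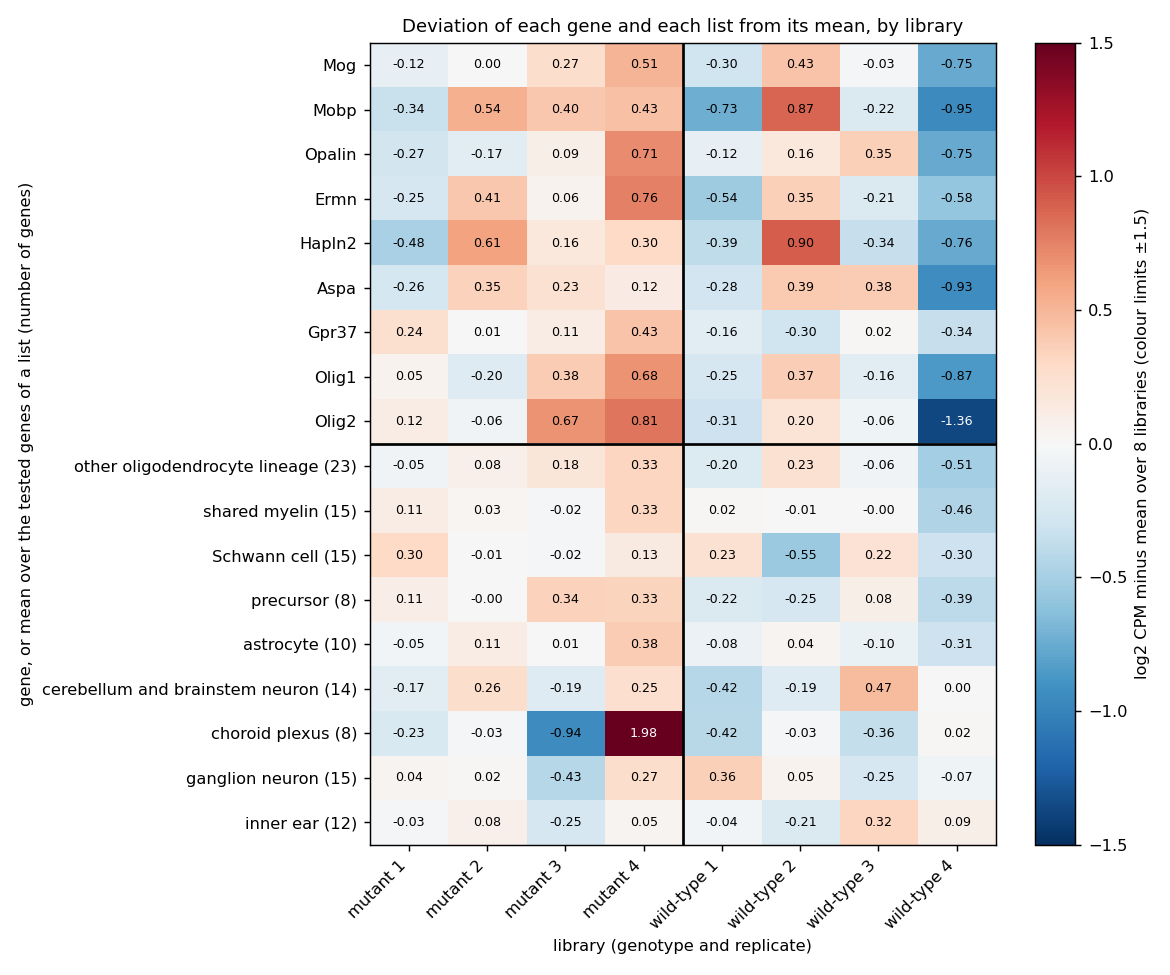
Log2 CPM of each gene minus its mean over 8 libraries (upper rows) and the mean of this value over each gene list (lower rows), mutant columns left of wild-type. Wild-type replicate 4 is below the mean in all 9 genes, whereas the Schwann cell row is lowest in wild-type replicate 2.

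A further list of 23 oligodendrocyte lineage genes was read in the same way. Of the 23, 0 were called by edgeR in either direction, where 0.0421% of all genes tested were called. At an unadjusted p under 0.05 (edgeR), 4 were higher, against 2.21% of all genes. The genotypes did not overlap in 1 of the 23, against 2.69% of all genes. These counts are descriptions. Of the 23, 20 were positive and 3 negative, and the median log2 fold change was 0.18. This median was 0.10 without mutant replicate 4 (18 positive) and 0.39 without wild-type replicate 2 (22 positive). Those with the smallest p were the metalloprotease gene Adamts4, the receptor gene Gpr17 and the transcription factor gene Sox8. Gpr17, a receptor of cells between precursor and myelinating stages, stood at 24.7 ± 8.59 CPM in mutant and 13.5 ± 4.01 CPM in wild-type libraries (SD, n = 4 each). The log2 fold change was 0.87 (SE 0.31, edgeR adjusted p = 0.918). Adamts4 stood at 14.4 ± 1.196 CPM in mutant and 9.53 ± 2.47 CPM in wild-type libraries (SD, n = 4 each). The log2 fold change was 0.59 (SE 0.18, edgeR adjusted p = 0.907). Sox8 had a log2 fold change of 0.21 (SE 0.083). Genes of precursors were likewise positive in 8 of 8 with 0 called, at a median of 0.34, which was 0.22 without wild-type replicate 2. Among them Pdgfra, the growth factor receptor of precursors that connective tissue cells also carry, had a log2 fold change of 0.32 (SE 0.13) and Neu4, a sialidase gene, 0.83 (SE 0.39).

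Genes that oligodendrocytes share with Schwann cells were positive in 13 of 15, with 0 called and a median log2 fold change of 0.22, which was 0.12 without wild-type replicate 4. The lipid synthesis gene Ugt8a (0.42, SE 0.17), the raft protein gene Mal (0.28, SE 0.13), the adhesion gene Mag (0.37, SE 0.18) and Mbp (0.42, SE 0.23) had the smallest p, at edgeR adjusted p = 0.924 to 0.930. Of 15 Schwann cell genes, 12 were positive and 0 called, with a median of 0.13. That value rested on single libraries, with 8 positive and a median of 0.010 without wild-type replicate 2, and 15 positive and a median of 0.27 without wild-type replicate 1. It was 0.23 without wild-type replicate 3, 0.052 without wild-type replicate 4 and 0.045 without mutant replicate 1. Pmp2, a fatty acid binding protein of peripheral myelin, stood at 30.4 ± 8.69 CPM in mutant and 17.6 ± 10.2 CPM in wild-type libraries (SD, n = 4 each). The log2 fold change was 0.78 (SE 0.41, edgeR adjusted p = 0.929). The next in order of p were Pmp22 (0.25, SE 0.19), Foxd3 (0.39, SE 0.30) and Cdh19 (0.30, SE 0.23).

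Across libraries, the mean profile of the 9 genes was closest to that of the other 23 lineage genes among the lists compared. A profile is the mean, over the genes of a list, of log2 CPM minus the gene's mean. With the 23 lineage genes Pearson's r was 0.996 and Spearman's rho 0.98, and r was 0.98 without wild-type replicate 4 and mutant replicate 4, the libraries farthest from the median. For precursor genes r was 0.66 and rho 0.50 (r = 0.17 without these 2 libraries). For astrocyte markers r was 0.87 and rho 0.86 (r = 0.70 without these 2 libraries). For Schwann cell genes r was -0.028 and rho -0.31 (r = -0.83 without these 2 libraries). For shared myelin genes r was 0.79 and rho 0.31, and r turned to -0.49 without these 2, so that relation rested on them. These are descriptions of 8 libraries and carry no test.

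**Figure D5:**
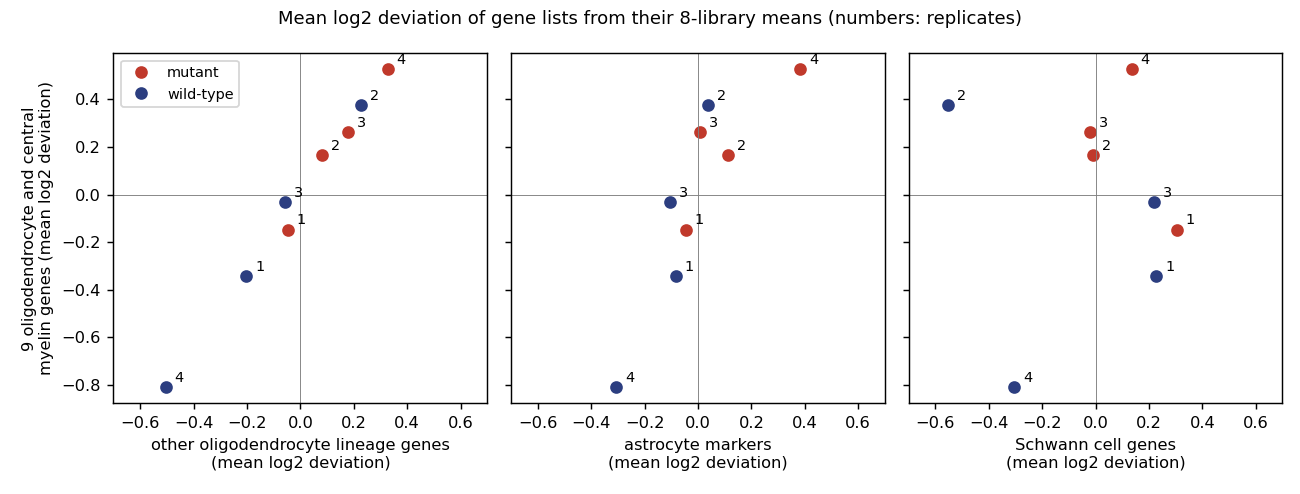
Mean log2 deviation of the 9 genes (vertical axis) against that of 3 other gene lists (horizontal axes), with each point a library numbered by replicate. Libraries line up for the other oligodendrocyte lineage genes, while wild-type replicate 2 has a high value for the 9 genes and the lowest for Schwann cell genes.

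The genes whose pattern over the 8 libraries was most like the members' profile, of 15169 with a mean of at least 1 CPM and no provisional symbol, were led by Celrr (r = 0.97), a long non-coding RNA, and Fastkd2 (0.97), a mitochondrial RNA-binding protein. Celrr had a mean of only 1.10 CPM, just above that cutoff. Klhl4 (0.96), the neural adhesion genes Ncam1 (0.95) and Cadm2 (0.95) and the zinc finger gene Zfp748 (0.95) followed. Myrf, the transcription factor that switches on central myelin genes, and Mbp completed the 8, both at r = 0.95. Of all 15169 genes, 26 had r above 0.9. None of the 8 was called between genotypes by edgeR (adjusted p from 0.924 to 1.0).

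Markers of other cells of the brain were read beside these results. Whether each marker is particular to the brain in this tissue was not tested. Of 10 astrocyte markers all were positive and 0 called (median log2 fold change 0.23, or 0.15 with 8 positive without mutant replicate 4). They were led by the angiotensinogen gene Agt (0.41, SE 0.12, edgeR adjusted p = 0.907). Their summed level ranged from 3472 to 4320 CPM in mutant and 3313 to 4006 CPM in wild-type libraries. Most of that sum came from S100b, at 3034 ± 322 CPM in mutant and 2991 ± 315 CPM in wild-type libraries (SD, n = 4 each). The sum is thus mainly the level of 1 gene and is not read as an amount of astrocytes. Pearson's r of S100b with the members' profile was 0.23. The astrocyte water channel gene Aqp4, which the ear also expresses, reached 194 CPM in mutant replicate 4, and the next highest library stood at 123 CPM. Of 16 markers of cerebellar and brainstem neurons 14 were tested, 8 positive and 6 negative with 0 called (median 0.056). This median was negative without mutant replicate 2 (-0.072), mutant replicate 4 (-0.022), wild-type replicate 1 (-0.020) or wild-type replicate 2 (-0.040), and higher without mutant replicate 3 (0.097) or wild-type replicate 3 (0.11). Their summed level ranged from 187 to 237 CPM in mutant and 168 to 217 CPM in wild-type libraries, most of it from Calb1, Zic1 and Zic2. That sum is likewise not read as an amount of these neurons. The cerebellar granule cell gene Gabra6 had 2 to 34 counts in mutant and 0 to 48 counts in wild-type libraries. Chat, of motor neurons, had 0 counts in 6 of the 8 libraries.

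Of 8 choroid plexus markers 7 were positive, 1 negative and 0 called (median 0.48). Without mutant replicate 4 the direction turned, with 2 of 8 positive and a median of -0.19. The summed level of these choroid plexus markers ranged from 118 to 2221 CPM in mutant and 149 to 244 CPM in wild-type libraries, and mutant replicate 4 held the highest value. In that library Ttr, the thyroxine carrier made by the choroid plexus, stood at 2020.82 CPM. It was also the library in which 6 members were highest, and without it the median log2 fold change of the members was 0.26, with 8 of 9 positive. Genes of ganglion neurons were positive in 6 of 15 with 0 called (median -0.064). Their direction turned with single libraries, with 12 positive and a median of 0.073 without mutant replicate 3, 11 and 0.078 without wild-type replicate 1, and 8 and 0.0080 without wild-type replicate 4. It was -0.11 without mutant replicate 1 or wild-type replicate 3, -0.13 without mutant replicate 4 and -0.0070 without mutant replicate 2. Their summed level of 4969 to 7723 CPM in mutant libraries overlapped that of 4920 to 7401 CPM in wild-type libraries. The part of brain, choroid plexus or nerve length in the members' values was not tested.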

How the data were processed

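Counts per gene symbol of 8 libraries (4 mutant, 4 wild-type) were used as deposited by the authors, as whole numbers without normalization. Per the submitters' processing notes, FastQC, STAR and HTSeq were used with the build mm10; no versions are stated. The library kit carries molecular identifiers per the labels' protocols; whether they were used, the strand setting and the annotation were not given in the sources read. Every pair of libraries differed beyond sampling noise (chi-square over its degrees of freedom at least 17.3).

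The test across all genes was edgeR 4.0.16 in R 4.3.3: default expression filter (21392 of 33027 symbols with a count), trimmed mean of M-values normalization, robust quasi-likelihood dispersions, genotype as the only term and Benjamini-Hochberg adjusted p under 0.05. Standard errors are the log2 fold change divided by the square root of F, and 95% intervals use the moderated degrees of freedom. Log2 CPM used a prior count of 2. The procedure was tested on simulated data whose changes were all larger than those of the members. That test does not cover differences of the members' size. Positions and exon lengths came from GENCODE M21 (GRCm38, the assembly of mm10), which holds 45236 of the 47517 symbols. Alternatives included DESeq2 1.42.0 and limma-voom (limma 3.58.1). Members and gene lists were chosen with earlier results of these data known. Named genes were all members, up to 4 genes per list with the smallest p (some are not reported here), and the 8 genes most like the members' profile; further list genes, such as Gfap, Calb1 and Chat, were named for scale or after their values were seen. Intervals and floors cover counting error or the spread between libraries only.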

Additional observations from a re-analysis of the deposited data

Results flagged for a closer look

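In 8 of 104 groups of 4 libraries examined (each named gene in each genotype), 1 library stood apart from the other 3 by Dixon's criterion. Its nominal rate of about 1 in 20 is for unselected, independent values. Many of these genes were named for their values in these libraries and vary together, so that rate is no yardstick here. Hapln2 stood at 17.4 CPM in wild-type replicate 2, against at most 7.28 CPM in the others of its genotype. Mutant replicate 4 held 5 of these values: Aqp4 at 194 CPM (next 123), Slc6a5, a glycine transporter gene of brainstem neurons, at 3.07 CPM (next 0.598), and the choroid plexus genes Ttr at 2020.82 CPM (next 32.5), Folr1 at 7.62 CPM (next 1.10) and Kcne2 at 7.89 CPM (next 1.24). Gabra6 stood at 1.56 CPM in mutant replicate 2 (next 0.219) and Cspg4, a proteoglycan gene of precursors and pericytes, at 26.8 CPM in mutant replicate 3 (next 20.9). Their part in the members' values was not tested.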

How the results depend on the processing

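In the 11 fits that kept all 8 libraries (3 other normalizations, 2 other filters, DESeq2, limma-voom, no robust estimation, title form, the block and no haemoglobin genes), 0 members were called and all 9 stayed positive, with medians between 0.37 and 0.39. With each library left out in turn 0 members were called, and the median log2 fold change ran from 0.16 to 0.67. Signs turned without wild-type replicate 4 for Opalin (-0.0043) and Aspa (-0.069), and without mutant replicate 4 for Opalin (-0.081). With 1 library left out, Opalin ranged from -0.081 to 0.35 and Aspa from -0.069 to 0.31. Within libraries of 1 title number the median difference was 0.73, and within those of 2 it was 0.11, with Mog at -0.066, Opalin at -0.30, Aspa at -0.095 and Olig1 at -0.010. The cause of these changes was not tested.

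A replicate block of libraries with adjacent title numbers, a pairing the labels do not state, gave a median of 0.39, with the lowest adjusted p for Gpr37 (0.231). Deviations of paired libraries correlated at 0.13, 0.25, 0.19 and -0.038 over all genes, so not every pair deviated together. Opalin has the fewest counts of the 9, at 22 to 56. Over all genes edgeR called 1 higher and 8 lower, against 44 and 69 with DESeq2, 5 and 11 with limma-voom and 17 and 12 with the block.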
